A study of Brassica napus with 12 samples.

Results

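*BnCKX1* (BnaC04g01930D) and *BnKMD1* (BnaA07g35640D), 2 of the 101038 genes in the count tables of *Brassica napus* root tips, were followed across varieties and temperatures. They were taken by their identifiers, as genes whose Arabidopsis counterparts lower cytokinin level or signalling. The study had already reported from the same data that warming induces both genes, and this was known when they were chosen. Their responses to temperature given here are thus not independent evidence. Cytokinins are plant hormones that in the root tip restrain the size of the meristem and favour the passage of cells to differentiation. Cytokinin oxidases/dehydrogenases (CKX) such as *CKX1* break the hormone down. Its signal runs from membrane histidine kinase receptors through phosphotransfer proteins to type-B response regulators (ARRs), which switch on target genes. KISS ME DEADLY (KMD) proteins are F-box subunits of ubiquitin ligases that mark type-B ARRs for degradation in Arabidopsis.

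RNA was taken from the root tips of 2 spring varieties of oilseed rape, Drakkar and Duplo, for which the labels name no transgene or mutation. Seeds of all groups were germinated for 3 days on agar and the seedlings were then kept for 7 days in pouches with nutrient solution, under long days, at a constant 21 °C (the reference) or 29 °C (warm). There were 4 groups, Drakkar 21 °C, Drakkar 29 °C, Duplo 21 °C and Duplo 29 °C, with 3 biological replicates each, and every replicate pooled the tips of many seedlings. A single variety stands for each background, and the tips are given as 1 cm long in the labels and as shorter in the methods of the study. The labelled tissue could not be checked against defining genes, since 0 of 24 marker loci for root hairs, green tissue, meristem and xylem had an identifier in the annotation at hand.

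The primer pairs that the study designed for both genes for its separate qPCR are shown here as the sequence designed for each gene. In the count tables the genes are identified by their annotated identifiers, and which gene copies the primers match was not tested. The primers are written 5′ to 3′, and capitals mark the last 5 bases, the 3′ end from which the polymerase extends.
BnCKX1 forward: gcgtccaaggactttgGCAAC
BnCKX1 reverse: cctctggctgctactGTAAG
BnKMD1 forward: aaaccgttagcgctcCGATA
BnKMD1 reverse: cacgtgtcatttctcaGCACC
The identifiers place *BnCKX1* on chromosome C04, of the C subgenome, and *BnKMD1* on chromosome A07, of the A subgenome. The *BnCKX1* primers are 21 and 20 bases long with a GC content of 57.1% and 55.0%, and the *BnKMD1* primers are 20 and 21 bases long with 50.0% and 52.4%. Values measured with these primers were not used.

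Reads counted on genes ranged from 26554987 to 39934384 over the 12 libraries. Because *B. napus* is an allotetraploid, near-identical copies of a gene lie on the A and C subgenomes, and how the reads were divided between such copies is uncertain for every gene named here. Duplo 29 °C replicate 3 stood apart from the other libraries. In it, 2.61% of the 55227 genes tested over all libraries were more than 4-fold above the mean of the other Duplo 29 °C replicates, whereas this share was at most 0.317% in each of the other 11 libraries. A principal component analysis of the genes tested gave a second axis with 18.4% of the variance. On this axis the Drakkar libraries lay between 36.0 and 66.0 at 21 °C and between -73.3 and -22.7 at 29 °C. The Duplo 21 °C libraries lay between 13.8 and 40.5, and Duplo 29 °C replicates 1, 2 and 3 at 19.4, 9.33 and -122. Which of these replicates shows the warm state of Duplo was not tested. The *BnKMD1* and KMD results that rest on Duplo 29 °C replicate 3 are given with and without it. The precision of the counts covers counting error only, as the reads carry no molecular identifiers.

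Reads of *BnCKX1* were nearly absent at 21 °C and present in all libraries at 29 °C, in both varieties. In Drakkar, the *BnCKX1* counts were 4, 0 and 3 reads in the 21 °C libraries and 66, 20 and 21 reads in the 29 °C libraries. This corresponded to levels of 0.0701 ± 0.0622 CPM (SD, n = 3), the scaled share of a library's reads, at 21 °C and 1.15 ± 0.775 CPM (SD, n = 3) at 29 °C. All Drakkar libraries at 29 °C lay above all those at 21 °C, as for 17.9% of the genes tested in this variety. Replicate 1 was the highest at 29 °C. *BnCKX1* rose by a log2 fold change of 4.03 (standard error 0.79, a 16.3-fold rise), which passed edgeR's quasi-likelihood test with Benjamini-Hochberg adjustment (adjusted p = 0.0350). Genes that changed more than 2-fold in either direction (an absolute log2 fold change over 1) at an adjusted p under 0.05 were called differentially expressed genes (DEGs), and 2.48% of the 52709 genes tested in Drakkar were DEGs with higher counts at 29 °C. In tissue extracts, fewer cells of a type and less RNA per cell cannot be told apart.

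The *BnCKX1* call in Drakkar rests on few reads. It held in 1 of the 6 fits that left out a library, the one without Drakkar 29 °C replicate 2, with log2 fold changes between 3.32 and 4.65 and edgeR adjusted p between 0.0209 and 0.114. DESeq2 gave a log2 fold change of 4.08 for *BnCKX1* (adjusted p = 0.000117) and called 3.68% of all genes higher at 29 °C.

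In Duplo, no read of *BnCKX1* was counted in any of the 3 libraries at 21 °C, which allows up to 0.0931, 0.103 and 0.102 CPM in replicates 1, 2 and 3. At 29 °C, the 3 Duplo libraries held 12, 9 and 6 reads, a level of 0.310 ± 0.0884 CPM (SD, n = 3). The Duplo groups did not overlap, and 13.2% of the 51673 genes tested in this variety had all 29 °C libraries above all 21 °C libraries. With the 3 libraries of each group pooled, the *BnCKX1* level at 29 °C was 9.43 times a floor of 3 counts over the 21 °C group. This lower bound covers counting error at 21 °C only. It leaves out the spread between replicates and the error of the 29 °C level. Leaving out single libraries moved this bound between 6.09-fold and 10.9-fold. *BnCKX1* had too few reads in Duplo to pass the filter on low counts, so it has no test there. Without the filter, edgeR's quasi-likelihood test gave an adjusted p of 0.132 for this gene, and its value from the one fit of all 12 libraries was an adjusted p of 0.0512.

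Across both varieties, the mean effect of temperature on *BnCKX1* came to 5.16 on the log2 scale (standard error 0.78, edgeR adjusted p = 0.00460). In that comparison 2.68% of the 55227 genes tested were DEGs with higher counts at 29 °C. The size of this fitted value is not a measured fold, because the Duplo 21 °C group holds no reads. *BnCKX1* remained a DEG in all 12 fits that left out a library, with edgeR adjusted p between 0.00398 and 0.0138. The difference between the temperature responses of the varieties was not past the threshold for *BnCKX1* (Duplo minus Drakkar, log2 2.27, standard error 1.65, edgeR adjusted p = 0.867).

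At 29 °C the *BnCKX1* levels were 2.04, 0.668 and 0.737 CPM in Drakkar and 0.382, 0.337 and 0.211 CPM in Duplo. Each Drakkar library was thus above each Duplo library, as for 16.0% of all genes tested. The 3.68-fold higher level of *BnCKX1* in Drakkar (log2 1.88, standard error 0.65) did not pass the threshold (edgeR adjusted p = 0.0778), which 6.67% of all genes passed with more reads in Drakkar. At 21 °C, 7 reads in Drakkar stood against 0 in Duplo, and the test did not separate the varieties (edgeR adjusted p = 0.156). The order of *BnCKX1* levels was Drakkar 29 °C, Duplo 29 °C, Drakkar 21 °C and Duplo 21 °C. Among neighbours in this order, only Drakkar 21 °C and Duplo 21 °C overlapped.

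**Figure D1:**
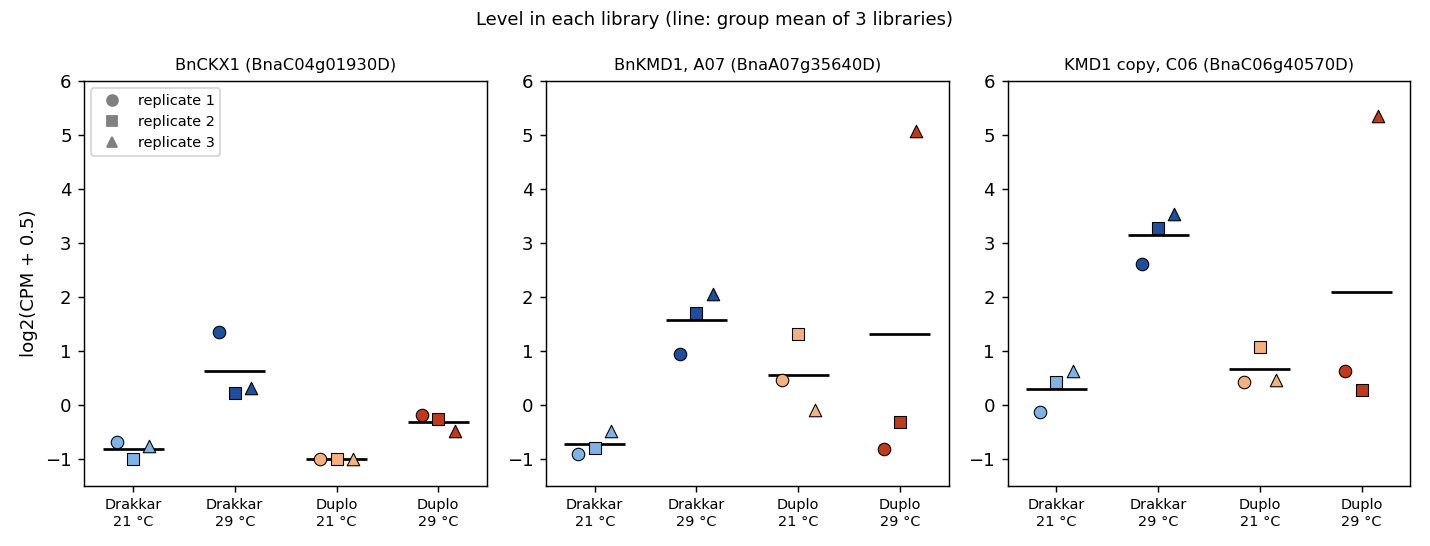
Level of *BnCKX1*, *BnKMD1* and the C06 copy of *KMD1* in each library as log2(CPM + 0.5), by variety and temperature, where symbols are replicates and lines are group means of 3 libraries. *BnCKX1* is higher at 29 °C in all libraries of both varieties, whereas in Duplo at 29 °C *BnKMD1* is at 33.3 CPM in replicate 3 and at 0.0636 and 0.299 CPM in replicates 1 and 2.

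*BnKMD1* was scarce in Drakkar at 21 °C and many times more abundant at 29 °C. The Drakkar counts of *BnKMD1* were 1, 3 and 7 reads at 21 °C and 46, 82 and 104 reads at 29 °C. Its levels were 0.106 ± 0.0955 CPM (SD, n = 3) at 21 °C and 2.60 ± 1.12 CPM (SD, n = 3) at 29 °C, without overlap between the temperatures. All 29 °C libraries lay above all 21 °C libraries for 17.9% of the genes tested in Drakkar. *BnKMD1* rose 24.0-fold in this variety (log2 fold change 4.58, standard error 0.59, edgeR adjusted p = 0.0163). The log2 fold change of *BnKMD1* in Drakkar lay between 4.17 and 5.47 over the fits that left out a library, and the call held in 2 of these 6 fits, those without Drakkar 29 °C replicate 1 or 2. In the one fit of all 12 libraries, where Duplo 29 °C replicate 3 enters the estimate of spread, *BnKMD1* had the same log2 fold change of 4.59 in Drakkar with a standard error of 1.94 (edgeR adjusted p = 0.166).

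In Duplo, the *BnKMD1* counts were 28, 58 and 13 reads at 21 °C. At 29 °C they were 2, 8 and 946 reads. The corresponding Duplo levels of 0.869, 1.99 and 0.442 CPM at 21 °C turned to 0.0636, 0.299 and 33.3 CPM in the 29 °C libraries. Replicates 1 and 2 at 29 °C were thus below every 21 °C library of the variety, and replicate 3 was above every one, as for 3.81% of the genes tested in Duplo. Replicate 3 was also above every Drakkar library. The level of *BnKMD1* in replicate 3 was 183 times the mean of replicates 1 and 2, and 23 of the 55227 genes tested stood further above their other Duplo 29 °C replicates on the log2(CPM + 0.5) scale.

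The direction of the *BnKMD1* response in Duplo changed with this 1 library. With all libraries its log2 fold change was 3.38 (standard error 1.90, edgeR adjusted p = 0.358). Without Duplo 29 °C replicate 3 it was -2.62 (standard error 0.88, edgeR adjusted p = 0.149). Neither value was a DEG, in a comparison where 0.00194% of all genes tested were DEGs with all libraries and 0.755% without that replicate. An exact two-sided permutation test of the *BnKMD1* levels in Duplo gave p = 1.0 (n = 3 against 3, smallest possible p = 0.1). The same exact test gave p = 0.1, that smallest value, for *BnKMD1* in Drakkar and for *BnCKX1* in each variety.

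**Figure D2:**
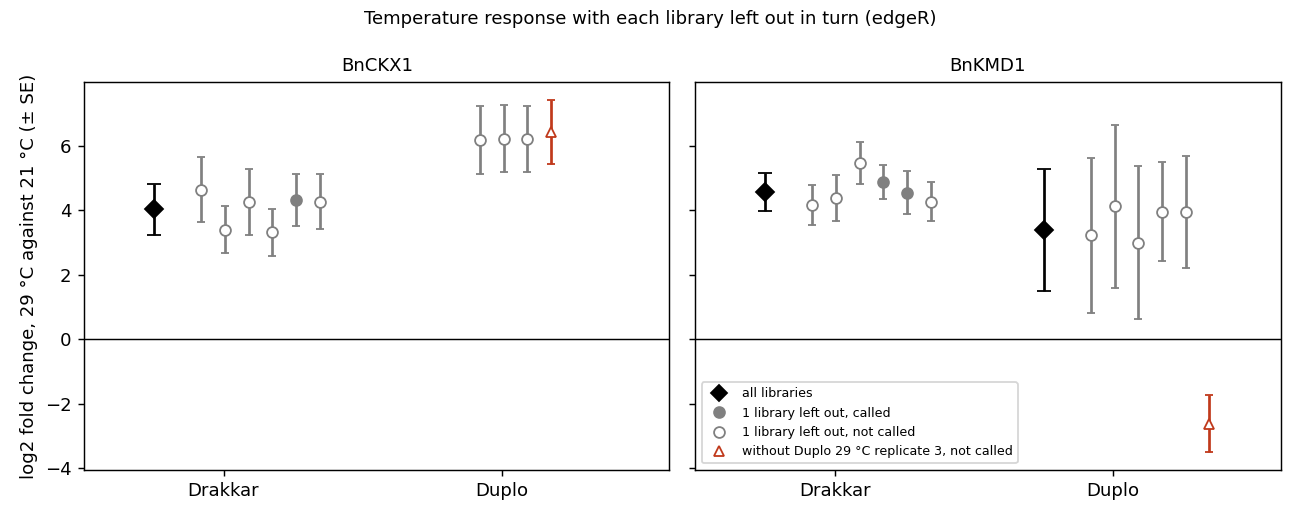
Fitted log2 fold change at 29 °C against 21 °C (± standard error) of *BnCKX1* and *BnKMD1* in each variety. Diamonds are fits with all libraries and are black whether or not the gene was a DEG. Other symbols are fits with each library left out in turn, filled for DEGs. In Drakkar all values are above 3, and in Duplo *BnKMD1* turns from 3.38 to -2.62 without 29 °C replicate 3. The Duplo values of *BnCKX1*, fitted against a group with no reads, show direction only. They exist for 4 of the 6 fits, and *BnCKX1* has no diamond in Duplo.

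The mean effect of temperature on *BnKMD1* over both varieties was 3.97 log2 units (standard error 1.22, edgeR adjusted p = 0.0433). It fell to 0.98 without Duplo 29 °C replicate 3 (edgeR adjusted p = 0.309) and was a DEG in 2 of the 12 fits that left out a library, those without Duplo 29 °C replicate 1 or 2. DESeq2 gave the same log2 fold change, 3.98, but no p-value for this gene.

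The test of the difference between the varieties' responses depended on the same library. With all libraries, subtracting the Drakkar from the Duplo response of *BnKMD1* gave -1.24 on the log2 scale (standard error 2.48, edgeR adjusted p = 0.977). No gene was called by edgeR in this comparison (0.0%), although 3891 genes had an unadjusted p under 0.05 and DESeq2 called 140 (0.253%). Without Duplo 29 °C replicate 3, the difference for *BnKMD1* was -7.20 (standard error 1.15, edgeR adjusted p = 0.0448). It was then 1 of 137 genes called, of which 79, or 0.141% of the genes tested, had the lower response in Duplo.

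At 21 °C every Drakkar library had less *BnKMD1* than every Duplo library, as was the case for 18.7% of all genes tested. The difference of Drakkar from Duplo was -3.35 on the log2 scale (standard error 2.02, edgeR adjusted p = 0.344) in the fit of all libraries. It had a standard error of 0.77 when the 21 °C libraries were fitted alone (edgeR adjusted p = 0.0192). Without Duplo 29 °C replicate 3 the value for *BnKMD1* at 21 °C was -3.34 (standard error 0.78, edgeR adjusted p = 0.00983), in a fit that called 6.24% of all genes lower in Drakkar. At 29 °C the sign depended on the replicate that stood apart. Drakkar minus Duplo was -2.11 (standard error 1.40, edgeR adjusted p = 0.354) with all libraries and 3.86 (standard error 0.85, edgeR adjusted p = 0.00651) without it, where 9.43% of all genes were called higher in Drakkar.

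By mean level, the order for *BnKMD1* was Duplo 29 °C (11.2 ± 19.1 CPM, SD, n = 3), Drakkar 29 °C, Duplo 21 °C and Drakkar 21 °C. Duplo 29 °C overlapped with each of the other groups, and Drakkar 29 °C overlapped with Duplo 21 °C. Of the neighbours, Duplo 21 °C and Drakkar 21 °C did not overlap. The first place of Duplo 29 °C rests on replicate 3. Without it the mean of the remaining libraries was 0.181 CPM, the third place, below every Duplo 21 °C library and overlapping with Drakkar 21 °C.

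A second gene annotated as *KMD1*, BnaC06g40570D on chromosome C06, had the same direction in Drakkar and the same library standing apart in Duplo. Its counts in Drakkar were 14, 33 and 34 reads at 21 °C and 181, 276 and 317 reads at 29 °C. In Duplo they were 27, 47 and 26 reads at 21 °C and 33, 19 and 1147 reads at 29 °C. The C06 copy rose in Drakkar (log2 fold change 3.49, standard error 0.37, edgeR adjusted p = 0.0114), as the A07 copy did. In Duplo its log2 fold change was 3.69 (standard error 1.57, edgeR adjusted p = 0.257) with all libraries and -0.32 without 29 °C replicate 3 (edgeR adjusted p = 0.673). The difference of its responses, Duplo minus Drakkar, was 0.16 with all libraries (standard error 1.72, edgeR adjusted p = 1.0). Without that replicate, the response of the C06 copy in Duplo was lower than in Drakkar (log2 difference -3.80, standard error 0.59, edgeR adjusted p = 0.0444).

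The sum of the reads of both copies does not depend on how the counted reads were divided between them. It can still depend on how reads that match both copies were treated, which is not known. As 1 feature, *KMD1* rose in Drakkar (log2 fold change 3.68, standard error 0.41, edgeR adjusted p = 0.0114). The summed value in Duplo was 3.55 (edgeR adjusted p = 0.294) with all libraries and -1.05 (edgeR adjusted p = 0.242) without 29 °C replicate 3.

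Of the reads on both *KMD1* copies, the A07 copy took a smaller share in Drakkar than in Duplo at 21 °C. These are shares of reads, without correction for gene length. In Drakkar it was 6.67%, 8.33% and 17.1% at 21 °C and 20.3%, 22.9% and 24.7% at 29 °C. All 29 °C shares were above all 21 °C shares, by 11.9 percentage points on average (exact permutation p = 0.1, the smallest possible, n = 3 against 3). In Duplo the A07 share was 50.9%, 55.2% and 33.3% at 21 °C and 5.71%, 29.6% and 45.2% at 29 °C. These Duplo groups overlapped, with a mean difference of -19.6 points (exact permutation p = 0.2, n = 3 against 3). At 21 °C the A07 share was lower in Drakkar than in Duplo (difference of -35.8 points, exact permutation p = 0.1, n = 3 against 3), without overlap. The lowest number of reads behind a share was 15, in Drakkar 21 °C replicate 1, where the Wilson 95% interval ran from 1.19% to 29.8%. The 2093 reads of Duplo 29 °C replicate 3 gave an interval from 43.1% to 47.3%, within the range of the Duplo 21 °C shares.

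**Figure D3:**
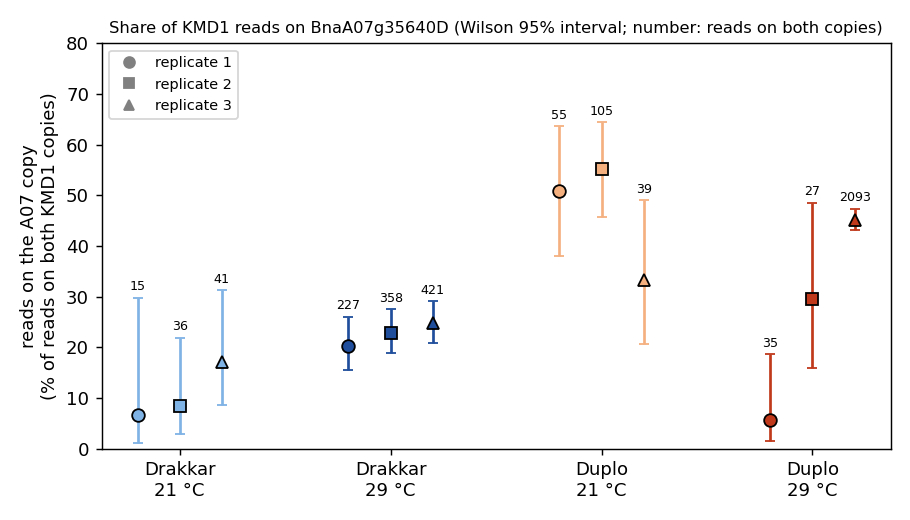
Share of the reads on both *KMD1* copies that fell on the A07 copy BnaA07g35640D, in percent, in each library (Wilson 95% intervals; the number above each symbol is the number of reads on both copies). The shares are between 6.67% and 17.1% in Drakkar at 21 °C, between 20.3% and 24.7% in Drakkar at 29 °C and between 33.3% and 55.2% in Duplo at 21 °C.

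The other KMD genes followed *BnKMD1* in several respects. Besides both *KMD1* copies, 4 genes were annotated as *KMD3* and 1 as *KMD4*, whose proteins are also F-box proteins that act on type-B ARRs in Arabidopsis. These names come from gene lists that the study drew from these same libraries. The directions of the list in either variety, and between the varieties, are thus not independent evidence. In Drakkar, 4 of the 7 KMD genes were DEGs, all higher at 29 °C, where 2.48% of all genes were. These were both *KMD1* copies and the *KMD3* genes BnaC03g24700D (log2 fold change 3.30, standard error 0.61, edgeR adjusted p = 0.0309) and BnaA03g20670D (2.48, standard error 0.46, edgeR adjusted p = 0.0306). The remaining *KMD3* genes had log2 fold changes of 1.98 (BnaA05g03760D, edgeR adjusted p = 0.0657) and 2.29 (BnaC04g03370D, edgeR adjusted p = 0.0597). *KMD4* (BnaA09g38190D) had a value of 1.76 (edgeR adjusted p = 0.137). The median over the 7 genes was 2.48, beside 0.0063 over all genes tested in Drakkar. With DESeq2 all 7 were DEGs, beside 3.68% of all genes called higher, but the study drew its lists with DESeq2 too.

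The KMD genes as a list carried the Duplo pattern of *BnKMD1*. Duplo 29 °C replicate 3 was the highest Duplo library for 7 of 7 KMD genes, as for 30.1% of all genes tested in Duplo. Replicates 1 and 2 were below every Duplo 21 °C library for 6 of 7, the exception being the C06 copy of *KMD1*, beside 21.2% of all genes. Both held for these 6, beside 3.81% of all genes. The *KMD3* gene BnaA05g03760D, for example, had 200, 125 and 275 reads in Duplo at 21 °C and 16, 59 and 783 reads at 29 °C. The level of replicate 3 was between 9.39 and 20.3 times the mean of replicates 1 and 2 for the *KMD3* genes and 3.45 times for *KMD4*, compared with 0.588 times for *BnCKX1*. With all libraries, 7 of 7 log2 fold changes in Duplo were positive (median 0.64) and 0 had an unadjusted edgeR p under 0.05. By edgeR 0 were DEGs, where only 0.00194% of all genes were. DESeq2 called 0, beside 1.8% of all genes, and gave no adjusted p for 3 of the 7. Without replicate 3, 7 of 7 were negative (median -2.16, beside -0.0039 over all genes). Then 0 were DEGs in edgeR, beside 0.755% of all genes, although 4 had an unadjusted p under 0.05.

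Between the varieties at 21 °C, 7 of 7 KMD genes had a lower fitted level in Drakkar. Because the list was drawn from these same libraries, its shares are not on equal terms with those of all genes. The Drakkar libraries were entirely below the Duplo libraries for 5 of them, *BnKMD1*, *KMD4* and the *KMD3* genes BnaA03g20670D, BnaA05g03760D and BnaC03g24700D, beside 18.7% of all genes. Over all libraries 0 were DEGs with edgeR or DESeq2 and 0 had an unadjusted edgeR p under 0.05, whereas 3 were DEGs without Duplo 29 °C replicate 3 (*BnKMD1*, BnaA03g20670D and BnaA05g03760D), where 6.24% of all genes were called lower. At 29 °C without that replicate, 7 of 7 were higher in Drakkar and 6 were DEGs, *KMD4* being the exception (log2 1.73, edgeR adjusted p = 0.0905), where 9.43% of all genes were called higher. With all 12 libraries, 3 of the 7 were higher in Drakkar, 4 were lower and 0 were DEGs with edgeR or DESeq2, with 0 unadjusted edgeR p under 0.05. DESeq2 gave no p-value for *BnKMD1* at 21 °C or 29 °C, so its counts of DEGs between varieties leave this gene out.

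Of the 66 Arabidopsis loci listed for cytokinin synthesis, activation, transport, degradation, conjugation, perception and response, 8 had an identifier in the annotation at hand, with 13 genes in all. Besides *BnCKX1* and the KMD genes these were *CKX6*, *UGT76C2*, *CRF3* and *CRF4*. No synthesis gene, receptor or response regulator was among them, and those genes were not analysed here. In Drakkar, 12 of the 13 genes were tested and 9 were DEGs, all higher at 29 °C, where 2.48% of all genes were. The identifiers of the list come from the gene lists that the study drew from these libraries, so this count is not independent evidence. In Duplo, 0 of 11 genes tested were DEGs with edgeR, where only 0.00194% of all genes were. Of the 11, 2 (both *UGT76C2* copies) had an unadjusted edgeR p under 0.05. DESeq2 also called 0 of them, with no adjusted p for 3, and called 1.8% of all genes in this variety. The median log2 fold change of the list was 2.14 in Drakkar and 0.64 in Duplo. Without Duplo 29 °C replicate 3 the Duplo median was -0.46, with 4 positive and 8 negative values among 12 genes tested. Of these 12 genes 0 were DEGs by edgeR, beside 0.755% of all genes, although 6 had an unadjusted p under 0.05.

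*UGT76C2* encodes a glucosyltransferase that inactivates cytokinins by N-glucosylation in Arabidopsis. Its A10 copy, BnaA10g24690D, had 38, 58 and 35 reads in Drakkar at 21 °C and 121, 70 and 116 reads at 29 °C. In Duplo it had 41, 55 and 46 reads at 21 °C and 75, 56 and 234 reads at 29 °C. The 29 °C libraries of this gene lay above the 21 °C libraries in both varieties, as for 17.9% of the genes tested in Drakkar and 13.2% in Duplo. In Duplo the nearest libraries had 56 reads at 29 °C and 55 reads at 21 °C. It rose in Drakkar (log2 fold change 1.45, standard error 0.26, edgeR adjusted p = 0.0286), and its value of 1.45 in Duplo (standard error 0.57, edgeR adjusted p = 0.232) was 0.52 without 29 °C replicate 3. The C09 copy, BnaC09g49620D, rose in Drakkar (log2 fold change 1.12, standard error 0.22, edgeR adjusted p = 0.0352) and had 1.06 in Duplo (edgeR adjusted p = 0.237), or 0.55 without 29 °C replicate 3 (edgeR adjusted p = 0.338).

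The cytokinin response factors *CRF3* and *CRF4* are AP2/ERF transcription factors that act downstream of the receptors. *CRF3* (BnaCnng38100D) had 35, 62 and 40 reads in Drakkar at 21 °C, 99, 125 and 120 at 29 °C, and between 110 and 156 reads in all Duplo libraries. It rose in Drakkar (log2 fold change 1.57, standard error 0.23, edgeR adjusted p = 0.0201). At 21 °C *CRF3* was lower in Drakkar than in Duplo (log2 -1.60, standard error 0.21, edgeR adjusted p = 0.000179), the only gene of the list called in that comparison, where 5.75% of all genes were. The difference between the responses of *CRF3* in Duplo and Drakkar was -1.26 (standard error 0.28, edgeR adjusted p = 0.499, DESeq2 adjusted p = 0.0502). *CRF4* (BnaC08g12710D) rose in Drakkar (log2 fold change 1.53, standard error 0.33, edgeR adjusted p = 0.0416) and had -0.19 in Duplo (edgeR adjusted p = 0.819), or -0.26 without 29 °C replicate 3.

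*CKX6*, the other cytokinin oxidase gene of the list (BnaC08g32840D), had 3, 4 and 7 reads in Drakkar at 21 °C and 16, 8 and 37 reads at 29 °C. All 6 Duplo libraries had 0 reads of this gene, which allows up to 0.0169 CPM over the variety. *CKX6* was too rare to pass the filter in Drakkar, in Duplo or over all 12 libraries. It passed in the fit of both varieties without Duplo 29 °C replicate 3, and only through its reads in Drakkar at 29 °C. There it was called higher in Drakkar at 29 °C (edgeR adjusted p = 0.0103), as were 9.43% of all genes. Because the gene passed the filter through the group where it is high, this call gives no support for a difference. The fitted log2 value of 7.43 is not a measured fold, because Duplo holds no reads. *BnCKX1* and *CKX6* thus shared the higher counts at 29 °C in Drakkar, whereas *BnCKX1* but not *CKX6* had reads in Duplo at 29 °C.

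**Figure D4:**
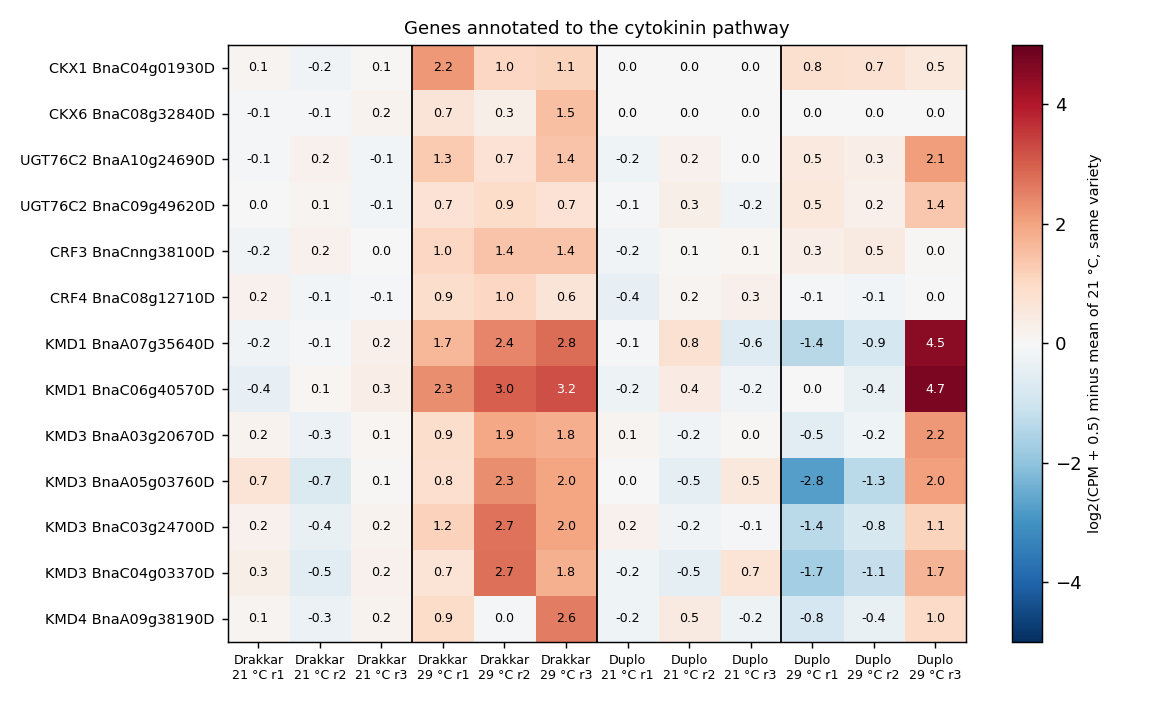
Level of the 13 genes annotated to the cytokinin pathway in each library as log2(CPM + 0.5) minus the mean of the 21 °C libraries of the same variety (red higher, blue lower; r1 to r3 are replicates, and *CKX6* is at 0 in Duplo because it has no reads). The KMD rows are red in Drakkar at 29 °C, apart from *KMD4* replicate 2, and in Duplo replicate 3 at 29 °C, where *BnKMD1* reaches 4.5, while *BnCKX1* is between 0.5 and 0.8 in the Duplo 29 °C libraries.

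The genes whose levels over the 12 libraries were most like those of each member were named by Pearson correlation of log2(CPM + 0.5) among 48357 genes with at least 1 CPM in a group. Libraries of 1 group share variety and temperature, so these values only describe likeness. For *BnCKX1* they were BnaC08g33280D (r = 0.963), the heavy metal associated protein gene BnaA07g36450D (0.961), BnaA10g03970D (0.952), the receptor-like protein gene *RLP23* (BnaAnng28770D, 0.948) and the gene annotated as *ASP1* (BnaC04g54310D, 0.943). Without Duplo 29 °C replicate 3 these correlations lay between 0.951 and 0.967. A high correlation does not mean a response of like size. In Drakkar BnaC08g33280D (log2 fold change 0.60, edgeR adjusted p = 0.134) and BnaA10g03970D (0.41, edgeR adjusted p = 0.0726) were not DEGs. BnaA07g36450D (3.12, edgeR adjusted p = 0.0254), *RLP23* (2.09, edgeR adjusted p = 0.0204) and *ASP1* (1.58, edgeR adjusted p = 0.0263) rose there. In Duplo *RLP23* had 1.72 (edgeR adjusted p = 0.0911).

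For *BnKMD1* the genes most alike were BnaA07g07880D (r = 0.980), the calcium sensor gene *SOS3* (BnaC07g30190D, 0.974), the nitrile specifier gene *NSP5* (BnaA02g29990D, 0.969), the ubiquitin-conjugating enzyme gene *UBC1* (BnaAnng21880D, 0.966) and BnaC04g07270D (0.965). Each of these was highest in Duplo 29 °C replicate 3. The levels there were 2.18 CPM for BnaA07g07880D, 14.1 CPM for *SOS3*, 17.2 CPM for *NSP5*, 15.8 CPM for *UBC1* and 24.6 CPM for BnaC04g07270D. Their log2 fold changes in Drakkar ran from 0.42 (BnaA07g07880D, edgeR adjusted p = 0.187) to 2.59 (*NSP5*, edgeR adjusted p = 0.0625). Without that library the correlations were between 0.899 and 0.948. The C06 copy of *KMD1* ranked 69 by this measure (r = 0.929, or 0.866 without Duplo 29 °C replicate 3).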

How the data were processed

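Libraries were made from mRNA with a stranded kit. The authors aligned the filtered read pairs to the rapeseed genome with HISAT2 and deposited raw read counts per gene, 1 table per variety, which were used here as deposited. The counting program, its strand setting and its treatment of reads with several matches are not given in the sources used here. Deposited tables of the authors' own DESeq2 comparisons (fold changes and p-values) were not used, and a line without a gene name (0 to 2 counts per library, at most 6.55e-06% of a library) was left out.

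The function filterByExpr removed genes with low counts and libraries were scaled by TMM (factors from 0.956 to 1.07 over 12 libraries). Temperatures were compared within each variety (6 libraries), and varieties, mean effect and interaction over all 12, with edgeR's quasi-likelihood test and Benjamini-Hochberg adjustment over all genes tested. The standard error is |log2 fold change|/√F. CPM values use the 12-library TMM factors, so the varieties share 1 scale; gene lengths were not used, and levels are not compared between genes. P-values measure the spread between replicates that pool seedlings. The code was tested on simulated data. Fits were run in R (version 4.3.3) with edgeR (4.0.16), limma (3.58.1) and DESeq2 (1.42.0), and summaries in Python (3.11.15) with scipy (1.17.1), pandas (2.3.3), numpy (2.4.6) and, for plots, matplotlib (3.10.9).

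The members, the cytokinin list and the marker list were chosen with earlier results of these data known. Genes named are the members, the genes annotated to listed cytokinin loci in the study's gene lists, and the 5 genes most like each member. A RefSeq table of another assembly matched 3347 identifiers, neither member among them. Alternatives were DESeq2, RLE factors or library totals, no filter, at least 10 counts in every library, a replicate block, robust estimation, other sets of libraries in the fit, both *KMD1* copies summed and each library left out. DESeq2 without the filter, and the summed copies without Duplo 29 °C replicate 3, were added after the data were seen.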

Additional observations from a re-analysis of the deposited data

How the results depend on the processing

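The *BnCKX1* call in Drakkar rests on few reads and was lost in 5 of the 6 fits without a library. The direction of *BnKMD1* in Duplo turned without 1 library and also with the replicate block. At least 10 counts in every library removed both members from all fits. In Duplo, *BnCKX1* could also not be fitted with RLE factors, library totals, robust estimation, the replicate block or DESeq2 on filtered genes, nor without 29 °C replicate 1 or 2. The causes of the changes below were not tested.

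With each library left out, log2 values ran from 3.32 to 4.65 for *BnCKX1* in Drakkar, from 2.61 (lower bound) to 6.44 (fitted) in Duplo, from 4.80 to 5.46 for its mean effect, from 1.65 to 2.99 for its interaction, and from 3.53 to 4.74 at 21 °C and 1.16 to 2.15 at 29 °C between varieties. The 29 °C difference of *BnCKX1* was past the threshold without Drakkar 21 °C replicate 2 (edgeR adjusted p = 0.0399). For *BnKMD1* they ran from 4.17 to 5.47 in Drakkar, -2.62 to 4.12 in Duplo, 0.98 to 4.41 for the mean effect, -7.20 to -0.51 for the interaction, -4.24 to -2.62 at 21 °C and -2.69 to 3.86 at 29 °C. Among the fits with a library left out, both *BnKMD1* signs that turned came without Duplo 29 °C replicate 3. These were -2.62 in Duplo and 3.86 between varieties at 29 °C. The value of -1.05 for both copies summed in Duplo also came without that replicate.

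Deviations of same-numbered replicates from their group means had correlations of -0.074, 0.063 and 0.130 in Drakkar and 0.027, -0.203 and -0.041 in Duplo. No pairing by number was seen, but 3 replicates per group cannot exclude it. With the replicate block, *BnCKX1* in Drakkar was at 4.02 (edgeR adjusted p = 0.0529). *BnKMD1* in Duplo was then at -0.12, a turned sign with all Duplo libraries, and its mean effect at 3.26 (edgeR adjusted p = 0.0927). The block left 545 instead of 1707 genes called in Drakkar and 0 instead of 1 in Duplo. The *BnKMD1* mean effect also missed the threshold with robust estimation (3.97, edgeR adjusted p = 0.0566) and had no p-value with DESeq2 (3.98, or 3.97 without the filter). *BnKMD1* in Drakkar missed it in the one fit of all libraries (4.59), and at 21 °C between varieties it passed with that temperature's libraries alone (-3.35).

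Genes called in Drakkar numbered 2611 with DESeq2 without the filter, 1122 in the one fit and 11 to 3173 with a library left out. In Duplo they were 929 with DESeq2, 915 without the filter, 684 in the one fit and 0 to 396 with a library left out. The mean effect went from 2087 to 1061 genes with at least 10 counts and 1359 to 2699 with a library left out, the interaction from 0 to 140 with DESeq2, 138 without the filter and up to 137 with a library left out, and the varieties at 21 °C from 6486 to 3176, or at 29 °C from 6913 to 3426, with at least 10 counts. Library totals moved the median of all genes in Drakkar from 0.0063 to 0.13 and the genes called higher from 1308 of 1707 to 1848 of 2142.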
